A study of Mus musculus with 94 samples.

Results

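Among the single cells sorted from the adipose tissue around the mouse aorta, 23 of the 85 cells with values carried an endothelial transcript programme, and these endothelial-like cells are described here. They were chosen by a rule on measured values. A cell was taken when its deposited value was at least 100 in at least 3 of the 9 endothelial genes *Pecam1*, *Cdh5*, *Flt1*, *Kdr*, *Cldn5*, *Egfl7*, *Esam*, *Tie1* and *Eng*, and when *Dcn*, which encodes the fibroblast matrix protein decorin, was under 1000. All of the cells were PV-ADSCs of a single condition: unmanipulated c57/bl mice (C57BL/6J in the study's methods) aged 8 weeks, peri-aorta adipose tissue of the thoracic aorta, no culture, and a sort for living CD144-/CD45-/CD29+/Sca1+ cells. A full-length SMART-seq v4 library was made from each cell, the series describes 94 cells, and the 9 that are not in the table were not analysed here. CD144 is the protein of *Cdh5*, so that the gate was set to leave endothelial cells out. No animal is named for any cell, so the cells count as a single sample, and differences between them carry no test.

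Capillary endothelium in fat takes up fatty acids that lipoprotein lipase releases at the vessel wall. GPIHBP1 holds the lipase on the luminal surface, CD36 carries fatty acids into the cell, FABP4 binds them in the cytosol, and the nuclear receptor PPARγ switches on several of these genes. Arterial endothelium is known for Notch ligands, ephrin-B2 and SOX17, and venous endothelium for COUP-TFII (*Nr2f2*), EphB4 and von Willebrand factor.

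Levels are given as reads that were recovered from the deposited normalized values, and as CPM, the same reads scaled to a common total in each cell. A gene was called found in a cell at 10 or more reads. The endothelial-like cells held 1727402 to 3445335 recovered reads (median, 2683683) and 546 to 1434 genes found (median, 1025). In comparison, the 57 stromal cells, defined by *Dcn* of at least 1000 and fewer than 3 rule genes, had a median of 2263 genes found, or 2091 with every cell thinned to 1146945 reads, where the endothelial-like cells had 949. Mitochondrial genes named *mt-* took 0.632% to 46.8% of the reads of an endothelial-like cell (median, 6.47%) and 0.950% to 33.5% of a stromal cell (median, 3.23%). Loci that may be copies of mitochondrial genes, such as *Gm10925*, were not counted in mitochondrial shares. The *mt-* genes took over 20% in 4 endothelial-like cells and in 1 stromal cell, and the part of this difference in the results below was not tested.

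The label was checked against the markers it was given with. *Fabp4* was found in 23 of 23 cells, *Cd36* in 22, *Cdh5* in 21, *Flt1* in 19, *Cldn5* in 17 and *Pecam1* in 16. All 6 markers were thus found in more than 12 of the cells, which fits the label, although *Cdh5*, *Flt1*, *Cldn5* and *Pecam1* were also part of the rule. Every member met the rule with 3 to 7 rule genes (median, 5), and 3 cells, numbered 45, 57 and 88 in the labels, met it with exactly 3. Deposited *Dcn* values of the members were 6.36 to 269, far from the limit of 1000, and the lowest in a stromal cell was 6521, in cell 50, which had only 69 recovered *Dcn* reads and the fewest reads of all cells. Just outside the rule lay cell 83, with 2 rule genes, and cell 34, with 5 rule genes and a *Dcn* value of 43594.

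**Figure D1:**
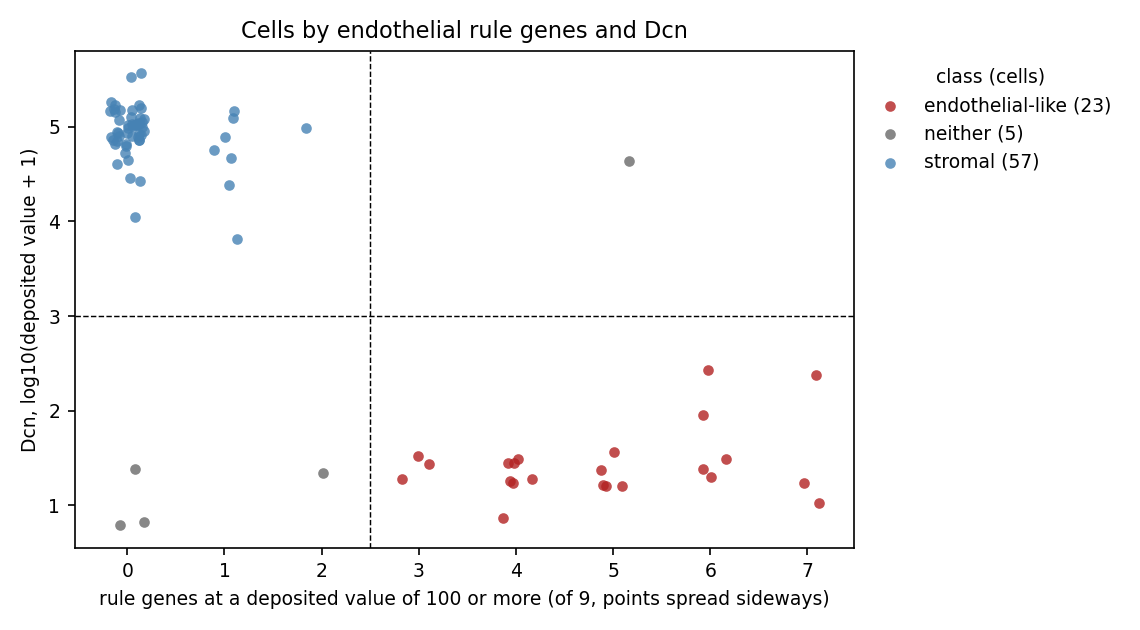
The 85 cells by the number of endothelial rule genes at a deposited value of 100 or more (x axis) and by *Dcn* as log10(deposited value + 1) (y axis), coloured by class, with dashed lines at the limits of the rule. The 23 endothelial-like cells have 3 to 7 rule genes at *Dcn* values no higher than 269, and 1 grey cell lies in the upper right.

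The promoters of genes that set the endothelial-like cells most apart in the share of cells are shown because several hold the GGAAGT core bound by ETS factors, the family of FLI1, ERG and ETS1 (RefSeq, GRCm38.p6; 250 bases before to 50 after the start, read in the direction of the gene). The letters in capitals mark GGAAGT on either strand. The window of *Cd36*, the fatty acid carrier, is chr5:17835847-17836146 on the minus strand, that of *Flt1*, which encodes the VEGF receptor 1, is chr5:147725962-147726261 on the minus strand, and that of the tetraspanin gene *Tspan7* is chrX:10484866-10485165 on the plus strand. The *Cldn5* window, chr16:18776597-18776896 on the plus strand, is shown as one without a match.
Cd36: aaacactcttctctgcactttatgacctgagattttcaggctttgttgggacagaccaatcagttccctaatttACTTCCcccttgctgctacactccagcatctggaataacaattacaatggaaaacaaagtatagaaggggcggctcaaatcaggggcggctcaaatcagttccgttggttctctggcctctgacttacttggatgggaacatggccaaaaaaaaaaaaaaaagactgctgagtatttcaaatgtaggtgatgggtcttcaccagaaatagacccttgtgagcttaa
Flt1: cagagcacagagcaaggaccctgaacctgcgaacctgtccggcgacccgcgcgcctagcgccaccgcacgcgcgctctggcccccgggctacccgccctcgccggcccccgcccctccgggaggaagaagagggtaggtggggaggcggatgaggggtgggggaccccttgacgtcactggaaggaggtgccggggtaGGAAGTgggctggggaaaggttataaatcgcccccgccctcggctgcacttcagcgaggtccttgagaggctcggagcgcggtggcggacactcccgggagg
Tspan7: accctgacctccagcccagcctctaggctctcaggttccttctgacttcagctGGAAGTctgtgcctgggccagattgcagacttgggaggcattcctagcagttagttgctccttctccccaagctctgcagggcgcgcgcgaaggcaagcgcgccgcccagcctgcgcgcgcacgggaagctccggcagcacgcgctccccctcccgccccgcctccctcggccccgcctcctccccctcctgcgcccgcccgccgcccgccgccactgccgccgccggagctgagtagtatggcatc
Cldn5: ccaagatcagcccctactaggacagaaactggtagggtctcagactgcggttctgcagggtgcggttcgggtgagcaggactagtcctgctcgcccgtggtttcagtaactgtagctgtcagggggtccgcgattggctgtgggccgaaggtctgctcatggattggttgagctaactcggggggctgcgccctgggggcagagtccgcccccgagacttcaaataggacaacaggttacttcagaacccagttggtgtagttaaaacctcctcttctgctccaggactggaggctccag
The 10 genes whose share of cells exceeded that in stromal cells the most were *Cdh5*, *Cd36*, *Gpihbp1*, *Flt1*, *Tspan7*, *Egfl7*, *Cav1*, *Cldn5*, *Adgrf5* and *Rgcc*. Of these, *Cdh5*, *Flt1*, *Egfl7* and *Cldn5* were also part of the rule that chose the cells. Of the 8 with a promoter in the table (all but *Cdh5* and *Gpihbp1*), 6 held GGAAGT, compared with 26.5% of 27025 gene symbols. By window, 7 of 12 held it, compared with 23.8% of all 32851 windows. A gene with several windows has more chances of a match. The letters AACAAT, bound by SOX factors, stood in 1 of the 8 genes and in 12.2% of gene symbols. A match is a description of the sequence and not a site of binding, and the difference from all gene symbols was not tested.

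*Fabp4* had the highest median CPM of all genes in the endothelial-like cells, followed by mitochondrial genes and their copies, among them *mt-Rnr2* at a median of 20692 CPM, whereas *Gpihbp1* ranked 14 and *Cd36* 23. *Fabp4* was the only gene of lipid handling found in every cell. Its reads were 1778 at the lowest, 57473 at the median and 152356 at the highest, and its level was 23461 ± 13836 CPM (SD, n = 23 cells). In stromal cells *Fabp4* was found in 22 of 57, at 235 ± 1167 CPM (n = 57), and reached 100 reads in 5. Cell 50 alone had 9796 reads of it, and without cell 50 the stromal level was 86.5 ± 332 CPM (n = 56). The lowest member, cell 55, therefore stood among the few stromal cells with much *Fabp4*, and the other 22 members stood above every stromal cell.

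At 10 or more reads, 12 genes (0.122% of the 9876 genes tested) were found in every endothelial-like cell, and 293 genes (2.97%) in 12 cells or more. Besides *Fabp4*, the 12 were *Tmsb4x*, which encodes the actin-binding peptide thymosin β4, the nuclear long noncoding RNA *Malat1*, the initiation factor gene *Eif1*, and 8 mitochondrial genes or their copies. Those 8 were *mt-Co3*, *mt-Rnr1*, *mt-Atp6*, *Gm10925*, *Gm29216*, *Gm28437*, *Gm28661* and *Gm13340*. The *Gm* loci may be near-identical copies of mitochondrial genes, so that the split of reads between them is uncertain.

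Levels per kilobase of transcript were ranked without the mitochondrial genes named *mt-*. In that ranking *Fabp4* came first, with a median of 23652 CPM per kilobase. *Gm10925* and *Gm29216* came next, at 18789 and 14660. Among genes with a known protein, *Tmsb4x* stood at 11433 CPM per kilobase, *B2m*, the light chain of class I molecules, at 7873, and *Ly6c1*, a surface antigen of mouse vascular endothelium, at 6778 CPM per kilobase. *Rgcc*, a cell cycle regulator gene marking capillary endothelium, stood at 3646, *Ly6a*, which encodes Sca1, at 3020, and *Gpihbp1* at 2570.

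The lipid uptake genes were found together in most of the cells. *Cd36* was found in 22 of 23 cells (95.7%, 95% interval 78.1 to 99.9%), against 6 of 57 stromal cells (10.5%, 3.96 to 21.5%), and its reads were 0, 6796 and 38382 at the lowest, median and highest. *Gpihbp1* was found in 20 of 23 cells (87%, 95% interval 66.4 to 97.2%), against 3 of 57 stromal cells (5.26%, 1.10 to 14.6%), with 0, 10864 and 34459 reads. In 19 of 23 cells *Fabp4*, *Cd36* and *Gpihbp1* each had at least 100 reads. The cells in which *Gpihbp1* was at 0 were 14, 55 and 69, and of these only cell 55 was also at 0 for *Cd36*.

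Of the 35 genes of capillary lipid handling with values, 30 were tested. By a rule of size, 17 of those were higher in the endothelial-like cells and 0 were lower. The rule of size required a 4-fold difference in mean CPM and a difference of 20 percentage points in the share of cells with 10 reads. Over all 9876 genes tested, 134 (1.36%) were higher and 1114 (11.3%) lower, and because the choice of cells used this contrast, the counts are a description. Without cell 50 they were 140 and 1116. The list of capillary lipid handling, like the other lists, was chosen with earlier results of these data known. A gene could also enter the comparison through reads in the endothelial-like cells alone. The median difference in share over the list was 28 percentage points, beside -8.85 over all genes tested. In this list were also *Timp4*, a tissue inhibitor of metalloproteinases, in 14 of 23 cells, *Car4*, a carbonic anhydrase on the capillary surface, in 12, *Tcf15*, the partner of MEOX2 in heart capillaries, in 12, and *Btnl9* in 11. *Rbp7*, a retinol-binding protein gene under PPARγ, and *Cd300lg*, a mucin-like receptor of endothelium, were each found in 10 cells. Of the stromal cells, 0 of 57 held any of these 6 genes at 10 reads, and a count of 0 would still permit a share of up to 5.26%.

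**Figure D2:**
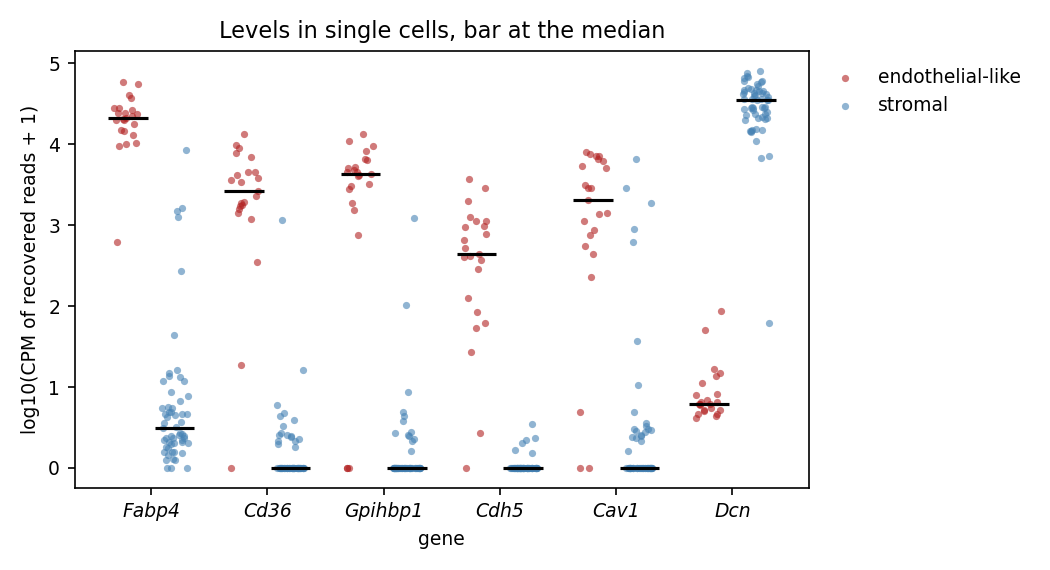
Level of 6 genes in each endothelial-like cell (red, 23 cells) and each stromal cell (blue, 57 cells) as log10(CPM of recovered reads + 1), with a black bar at the median of the class. *Fabp4*, *Cd36*, *Gpihbp1*, *Cdh5* and *Cav1* lie high in most red cells, and *Dcn* is high in the blue cells but has reads in every red cell.

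*Pparg*, the gene of the nuclear receptor itself, was found in 9 of 23 cells (39.1%, 95% interval 19.7 to 61.5%) and in 0 of 57 stromal cells. Its reads were 0, 0 and 9481 at the lowest, median and highest, so that most of the cells were under 10 reads, while *Fabp4*, a known target of the receptor, was found in each. *Lpl*, which encodes the lipase that GPIHBP1 anchors, had a share of 10 of 23 in the endothelial-like cells and 46 of 57 in stromal cells, at 392 ± 638 CPM and 688 ± 1537 CPM, and was not called in either direction. The fatty acid binding protein gene *Fabp5* was found in 11 of 23 cells and called higher. The transport protein genes *Slc27a1* and *Slc27a3* had 0 reads in every member, and *Slc27a4* was found in 1 cell.

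**Figure D3:**
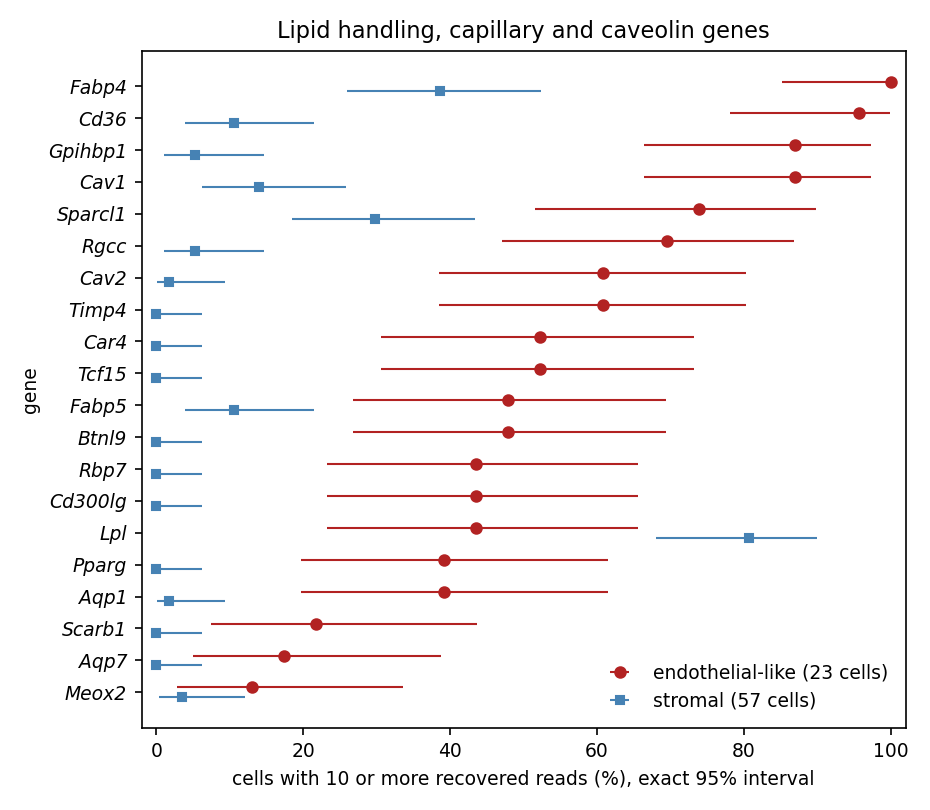
Share of cells with 10 or more recovered reads for 20 genes of lipid handling, capillaries and caveolae, in 23 endothelial-like cells (circles) and 57 stromal cells (squares), with exact 95% intervals for counting error. *Fabp4* and *Cd36* are at the top for the endothelial-like cells, and *Lpl* is the gene whose share is larger in stromal cells.

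Caveolae, the flask-shaped pits that crowd the capillary membrane, were represented by both caveolins of endothelium. *Cav1* was found in 20 of 23 cells (87%, 95% interval 66.4 to 97.2%), with 0, 5473 and 25141 reads at the lowest, median and highest, against 8 of 57 stromal cells (14%, 6.26 to 25.8%). *Cav2* was found in 14 of 23 cells and 1 of 57 stromal cells. Together with *Sdpr*, these were the 3 genes called higher of 9 tested (10 with values), and 0 were called lower. *Ptrf*, the gene of cavin-1, was found in 16 of 23 endothelial-like and 41 of 57 stromal cells, at 595 ± 723 CPM and 213 ± 269 CPM.

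Of 35 genes of the endothelial junction and surface with values (33 tested), 24 were higher and 2 lower, but 7 of the higher genes were rule genes. Of the other 28 (26 tested), 17 were higher and 2 lower, with a median difference in share of 33 percentage points. Transcripts of the gated protein were present in nearly every cell. *Cdh5*, the gene of VE-cadherin, was found in 21 of 23 cells (91.3%, 95% interval 72 to 98.9%), and its reads were 0, 1167 and 8743 at the lowest, median and highest. No stromal cell reached 10 reads of *Cdh5*, where the highest had 7. *Cdh5* or *Pecam1* was found in 22 of 23 cells.

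Not every rule gene was common. *Flt1* was found in 19 cells, *Egfl7* in 18, *Cldn5* in 17, *Pecam1* in 16 and *Kdr*, the gene of VEGF receptor 2, in 15. *Esam* was found in 10 and *Tie1* in 7. The coreceptor gene *Eng* was found in 12 cells at 10 reads but in only 4 cells at 100 reads.

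Beyond the rule, the surface list held adhesion receptors, a phosphatase of the junction and a sialomucin. *Tspan7* was found in 19 of 23 cells, *Adgrf5*, an adhesion G protein-coupled receptor gene, in 17, *Ptprb*, which encodes the phosphatase VE-PTP, in 14, and *Adgrl4* in 14. *Cd93* was found in 15 cells and *Emcn*, the gene of endomucin, in 13, as was *S1pr1*, the receptor of sphingosine 1-phosphate. In stromal cells these 7 genes were found in 0 to 5 of 57. The 2 lower genes of the list were *Cd34*, found in 2 of 23 endothelial-like and 32 of 57 stromal cells, and the catenin gene *Ctnnd1*, found in 2 and 17.

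Among transcription factor genes of endothelium, the median share of cells was 26.1%. Of 28 with values (26 tested), 9 were higher and 1 lower, beside 1.36% and 11.3% over all genes tested. In 12 cells or more, 3 were found. *Tcf4* was found in 16 of 23 cells, *Epas1*, which encodes the hypoxia-inducible factor HIF-2α, in 13, and *Tcf15* in 12. *Ets1* was found in 10, *Fli1* in 8 and *Sox18* in 8, and *Erg* in 2, so that no single ETS or SOX gene marked the cells at this depth. The lower gene was *Lmo2*, in 2 cells and 18 of 57 stromal cells.

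More of the cells had markers of capillaries than markers of larger vessels. Of 8 capillary markers with values (*Gpihbp1*, *Rgcc*, *Car4*, *Tcf15*, *Rbp7*, *Cd300lg*, *Aqp7* and *Meox2*), the cells had 0 to 6 (median, 4), and 18 of 23 cells had at least 3. A stromal cell had at most 1. *Rgcc* was found in 16 of 23 cells (69.6%, 95% interval 47.1 to 86.8%), and all 12 cells with *Car4* were among the 16 with *Rgcc*. In contrast, *Cd300lg* and *Rbp7*, each found in 10 cells, were found together in 4.

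At least 1 of 6 arterial markers (*Sox17*, *Sema3g*, *Hey1*, *Efnb2*, *Gja4* and *Bmx*) was found in 11 of 23 cells, and 9 of these 11 also had at least 3 capillary markers. *Sox17* was the most common arterial marker, in 6 of 23 cells, of which 5 also had *Rgcc*. The Notch ligand gene *Dll4* and the receptor gene *Notch4* were found in 4 cells each and in 0 of 57 stromal cells. Of 20 genes of Notch signaling with values (16 tested), however, 0 were found in 12 cells or more, 0 were higher and 1, *Notch2*, was lower.

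Venous markers (*Nr2f2*, *Vwf*, *Ackr1* and *Ephb4*) were found in 4 of 23 cells. A member had 0 to 4 of them and a stromal cell 0 to 2, so a single one was not particular to the members. Over the 12 venous genes tested, the median share was 10.9% in members and 15.8% in stromal cells. Of the 8 lymphatic genes with values, *Flt4*, the gene of VEGF receptor 3, was found in 2 cells and the other 7 in 0 of 23 cells, a count that permits shares of up to 13%. *Pdpn*, the gene of podoplanin, had 0 reads in every member. The lymphatic markers *Prox1*, *Lyve1*, *Ccl21a* and *Mmrn1* had no values, so lymphatic identity could hardly be judged. Of the 6 lymphatic genes tested, 5 were lower than in stromal cells, where their median share was 28.1%.

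Cells 55 and 3 differed from the rest in their vessel markers. Cell 55 had 0 capillary markers and 4 arterial ones, the connexin 37 gene *Gja4* at 1291 reads, the ephrin-B2 gene *Efnb2* at 3758, the semaphorin gene *Sema3g* at 1787 and the kinase gene *Bmx* at 170. It also held 2 venous markers, with 1517 reads of *Vwf* and 4089 of *Ephb4*, and it had the lowest *Fabp4*, 1778 reads. Cell 55 was the only member in which *Gja4* or *Bmx* was found. With genes chosen after the values were seen, the same cell had 51061 reads of the cytokine-like gene *Cytl1*, 33086 of the calcification inhibitor gene *Mgp*, 20102 of the clusterin gene *Clu* and 10451 of *Stmn2*, and it was also the only member with over 100 reads of the matrix genes *Mfap5* (7630) and *Fn1* (9973).

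Cell 3 had all 4 venous markers, *Vwf* at 10201 reads, the atypical chemokine receptor gene *Ackr1* at 3298, *Ephb4* at 1984 and *Nr2f2* at 176. Its only capillary marker was *Gpihbp1*, with 4513 reads. *Plvap*, the gene of the diaphragm of fenestrae and chosen after the values were seen, had 14505 reads in cell 3, 869 in cell 55 and under 10 in the other members. Mitochondrial genes took 1.87% of the reads of cell 3 and 2.36% of those of cell 55, below the median of the members. Without both cells, 141 genes were higher and 1173 lower than in stromal cells, and 15 genes were found in every cell.

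**Figure D4:**
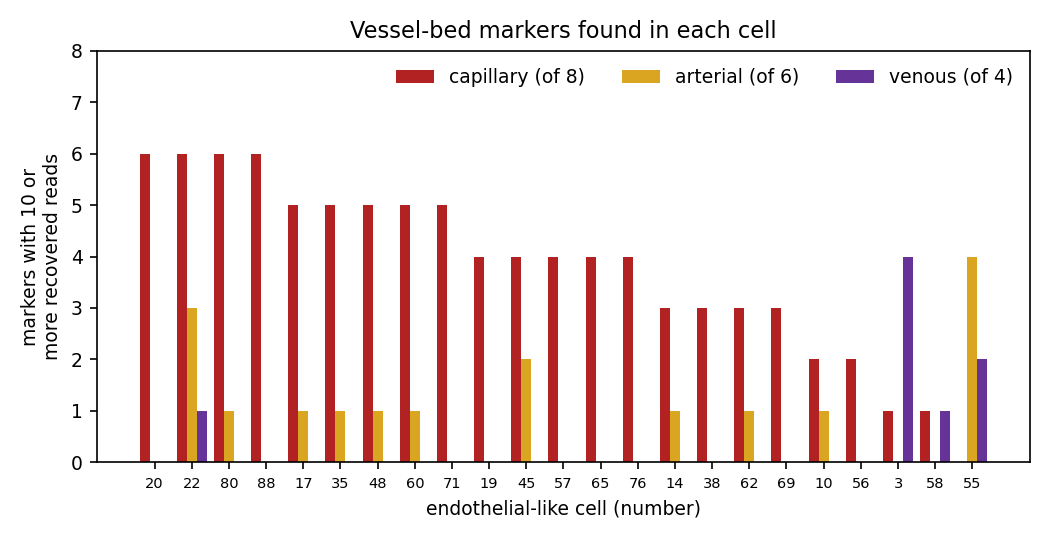
Number of capillary (red, of 8), arterial (yellow, of 6) and venous (purple, of 4) markers with 10 or more recovered reads in each of the 23 endothelial-like cells, named by number and ordered by capillary markers. Most cells show 3 to 6 capillary markers, whereas cell 3 is led by venous and cell 55 by arterial markers.

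The gate's own antigens were not alike in the transcripts. *Ly6a*, the gene of Sca1, was found in 19 of 23 cells (82.6%, 95% interval 61.2 to 95%) and 51 of 57 stromal cells (89.5%, 78.5 to 96%), at 3371 ± 3393 CPM and 3451 ± 2756 CPM. It was at 0 reads in 4 cells, 10, 35, 76 and 80. *Itgb1*, the gene of CD29, was found in 12 of 23 endothelial-like and 33 of 57 stromal cells. Of 19 Ly6 and class I genes (17 tested), 3 were higher and 0 lower, beside 1.36% and 11.3% over all genes tested. The higher ones were *Ly6c1*, *Ly6e* and the immunoproteasome gene *Psmb8*. *Ly6c1* was found in 22 of 23 cells at 5458 ± 2949 CPM, against 1087 ± 1348 CPM in stromal cells. *Ly6e* was found in 22 cells and *Psmb8* in 9.

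The endothelial-like cells had few or no reads of the interstitial collagens and proteoglycans of the stromal cells, whereas some basement membrane genes were common in them. Of 16 stromal markers, 15 were lower and 8 were found in no member. *Dcn*, whose deposited value chose both classes, was among the lower markers, so its difference follows from the choice of cells. The 10 largest deficits in share were *Col1a1*, *Rarres2*, *Dpt*, *Loxl1*, *Anxa1*, *C3*, *Rnase4*, *Cd63*, *Col6a1* and *Fxyd1*, and *Col1a1*, a chain of type I collagen, had 0 reads in all 23 cells and was found in 56 of 57 stromal cells. Low counts of the most abundant stromal transcripts were nevertheless present: *Dcn* had 7, 14 and 248 reads at the lowest, median and highest, at 11.8 ± 19 CPM against 35248 ± 18118 CPM in stromal cells, and *Gsn*, the gelsolin gene, had 8, 17 and 156 reads. At least 2 stromal markers had 100 reads in cells 20, 48 and 55, and the source of these reads was not tested.

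Of 23 basement membrane and integrin genes (21 tested), 4 were higher and 6 lower, beside 1.36% and 11.3% over all genes tested. The higher ones were *Col4a2*, a chain of type IV collagen, in 19 of 23 cells, the matricellular gene *Sparcl1* in 17, and the integrin genes *Itga6* in 12 and *Itga1* in 7. *Itga6*, whose product binds laminin, was found in 0 of 57 stromal cells. *Nid1* and *Lamb1*, which encode nidogen 1 and a laminin chain, were among the lower genes, in 4 and 1 cells against 50 and 38 of 57.

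Genes of BMP and TGF-β signaling had a median share of 4.35% of the cells, the same as all genes tested. Their 3 lower genes of 25 tested (26 with values) were near the 11.3% over all genes. The 2 higher genes were the coreceptor *Eng*, which was part of the rule that chose the cells, and the BMP target *Id1*. *Id1* was found in 13 of 23 cells against 6 of 57 stromal cells, at 989 ± 1331 CPM and 35.5 ± 138 CPM. The lower genes were *Tgfbr2*, the type II TGF-β receptor gene, found in 1 of 23 cells against 44 of 57, *Bmpr1a* and *Id4*. *Id3* had a share of 14 of 23 against 45 of 57 and was not called.

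Among 26 genes of vascular tone and hemostasis with values, 20 were tested. Of those, 2 were higher and 6 lower, beside 1.36% and 11.3% over all genes tested. The higher genes were *Cav1* and *Ednrb*, the endothelin receptor B gene, in 7 of 23 cells and 0 of 57 stromal cells. The nitric oxide synthase gene *Nos3* was found in 2 cells and the endothelin gene *Edn1* had 0 reads in every member. The lower genes included *Plat*, *Thbd* and *Procr*, found in 1, 3 and 1 cells against 38, 38 and 18 of 57. The angiogenic and tip cell list had 1 gene higher, *Col4a2*, and 3 lower of 12 tested (16 with values). In it *Apln* was at 0 reads and *Angpt2* was found in 2 cells.

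Genes of the immediate early and dissociation list were common, 13 of 21 in 12 cells or more, and their summed level had a median of 27809 CPM in endothelial-like and 21474 CPM in stromal cells. The heat shock genes *Hspa1a* and *Hspa1b* were higher, in 19 and 16 cells against 18 and 24 of 57, and *Fosb*, *Nr4a1* and *Myc* were lower. *Myc* had 0 reads in every member and was found in 23 of 57 stromal cells. Their part in the other differences was not tested. Of 7 cell cycle genes with values, only 2 were tested and 0 were called, and *Mki67* had 0 reads in the members.

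Markers of other cells of fat were scarce. None of the 5 leukocyte and 7 mesothelial markers with values was found in a member, nor were the 4 of Schwann and erythroid cells, and *Adipoq*, the adiponectin gene of adipocytes, was at 0 reads in all 23. Of 5 adipocyte markers, *Fasn*, *Car3* and *Adrb3* were each found in 1 cell, and the summed level of the list was 0 to 1844 CPM in endothelial-like and 0 to 6153 CPM in stromal cells. Of 13 mural markers, 5 were found in any member, among them the pericyte gene *Rgs5* in 3 cells and *Mcam* in 2. *Cspg4* and *Kcnj8* were at 0 reads in all members. The summed mural level was 0 to 3658 CPM (median, 108) in endothelial-like and 0 to 1976 CPM (median, 490.3) in stromal cells.

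**Figure D5:**
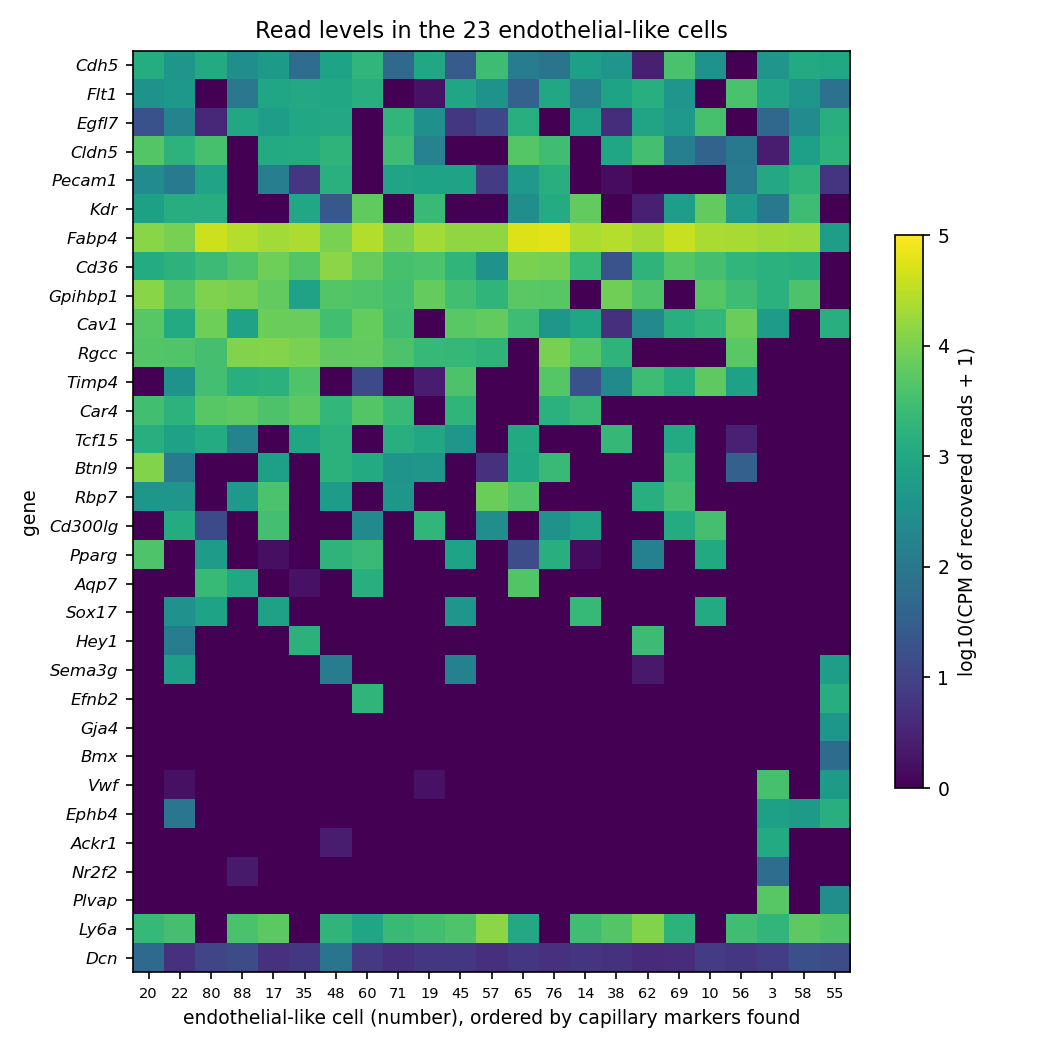
Level of 32 genes (rows) in the 23 endothelial-like cells (columns, by number, in the order of capillary markers found), as log10(CPM of recovered reads + 1) from dark (0) to yellow. *Fabp4* is bright in every column but that of cell 55, capillary genes fill the left of the picture, *Vwf* and *Plvap* are bright in cells 3 and 55, and *Sox17* and *Hey1* are found in other cells.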

How the data were processed

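The authors aligned the reads to mm9 with HISAT2 2.0.5, used SAMtools 1.4 and StringTie 1.3.3 per the labels, and scaled them with scater. They deposited a normalized signal for 16069 gene symbols in 85 cells, and 85.3% of its values were 0. The genes above 0 in fewer than 10 cells held whole numbers. The other 6127 held whole numbers or reads multiplied by a factor that 113 to 810 genes shared in a cell. Dividing by that factor, found within each cell and group, gave the recovered reads, a step chosen after the values were seen. All 165973 values of these genes came out whole to the printed digits, compared with 0.00208% of values with the factor of another group. The factor rested on under 10 values in 20 of 1105 cases. Because the factors differed between groups of genes in a cell, the deposited values did not carry a single scaling per cell. The program that counted reads is not given in the sources used here. Reads of one locus were not separated by strand or molecule, so intervals (exact Clopper-Pearson, 95%) and limits (3 cells of the total) cover counting error only.

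CPM used the total of recovered reads of a cell. Genes tested had 10 reads in at least 3 cells of both classes together, and only these could be called. Doublets were not called, as each well was to hold 1 cell. The members and the 22 gene lists were chosen with earlier results of these data known, and calls are rules of size, not tests. Text names genes of the rule and the markers, the 25 most abundant by median CPM, those found in every cell, the 10 largest excesses and deficits in share, up to 6 per list by the number of cells, markers at 0 and genes of the sort, with others as called. For levels per length, 15564 symbols (96.9%) matched a transcript of GENCODE M21, and genes named *mt-* were left out of the ranking. Promoters came from RefSeq (GRCm38.p6). Alternatives were other limits of the rule, thinning to 1146945 reads, other read minimums, deposited values in place of CPM, no filter and means without the highest cell, and, after seeing the data, leaving out the cells with over 20% mitochondrial reads, cells 3 and 55 or cell 50, and CPM without mitochondrial genes. The recovery of reads was checked on simulated reads, and 100% of values came back. The simulation used the gene groups and the kind of factor that the recovery assumes, so it checks the computation and not that assumption. Python 3.11.15, numpy 2.4.6, pandas 2.3.3, scipy 1.17.1 and matplotlib 3.10.9 were used.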

Additional observations from a re-analysis of the deposited data

Results flagged for a closer look

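Transcripts of the endothelial-like programme were also present in cells outside it. Cell 34 had 5 rule genes at a deposited value of 100 together with 73060 recovered reads of *Dcn*. In it 3037 genes were found, more than in any member but within the 389 to 3426 of stromal cells. Cell 83 had 2 rule genes at 100 but 40474 recovered reads of *Gpihbp1*, with 85250 of *Fabp4*, 33582 of *Cd36*, 10787 of *Cldn5* and 7478 of *Flt1*, and it had 4 capillary markers. Cell 13 had 0 rule genes at a deposited value of 100, though 178 recovered reads of *Cldn5*, with 2059 of *Cd36* and 78.6% mitochondrial reads. Cell 89 had 0 rule genes at 100, 8431 reads of *Fabp4*, and 73% mitochondrial reads. Cell 50, which counted as stromal with 69 reads of *Dcn*, had 9796 reads of *Fabp4*, 1317 of *Cd36*, 1393 of *Gpihbp1* and 16197 of *Kdr*.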

How the results depend on the processing

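The number of endothelial-like cells was 20 to 24 under the alternatives (23 as reported), the genes higher than in stromal cells 126 to 159 (134), and the genes lower 829 to 1539 (1114), each within 1.5 times the reported count. With any read in place of 10, 508 genes were found in 12 cells or more (293 as reported) and 29 in every cell (12). Without the cells over 20% mitochondrial reads, 20 genes were found in every cell. Thinning every cell to the lowest total left 254 and 11. Of 52 named genes, 45 moved by less than their counting interval with any read in place of 10 and 47 with 100 reads, where the share of *Eng* was 17.4% and that of *Dcn* 8.70%. A gene with few transcripts may be missed in a cell, so an absent marker at this number of cells is a limit and not an absence. No paired analysis was possible because there is a single group, and its numbers name single cells.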

Other observations

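A set of interferon-inducible genes, chosen after the values were seen, was found in many of the endothelial-like cells. *Cxcl9*, a chemokine gene induced by interferon-γ, was found in 11 of 23 cells, with 8612 reads at the highest, and in 1 of 57 stromal cells. The interferon-inducible GTPase genes *Tgtp2*, *Gvin1* and *Iigp1* were found in 11, 13 and 9 of 23 and in 5, 4 and 8 of 57 cells. *Tgtp1*, a near-identical copy whose reads may be shared with *Tgtp2*, is left out of the count. At least 1 of these 4 genes was found in 21 of 23 endothelial-like and 13 of 57 stromal cells, and at least 2 in 14 and 3. Over all genes tested, the median share was 4.35% of endothelial-like and 14% of stromal cells. Because the 4 genes were picked from the values, the counts are a description. *Ifitm3*, also interferon-inducible, was found in 21 of 23 and 55 of 57 cells and was not called.

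Other abundant genes outside the lists, also chosen after the values were seen, were *Tspan13* in 13 of 23 cells at 2750.4 ± 3283 CPM (stromal cells, 14.5 ± 109.7 CPM), *Srgn*, the serglycin gene, in 15 cells, and the adipokine-related gene *C1qtnf9* in 12 cells and 0 of 57 stromal cells. The small heat shock protein gene *Hspb1* was found in 20 of 23 cells at 2615 ± 2101 CPM, against 293 ± 445 CPM in stromal cells, and *Apoe*, the apolipoprotein E gene, in 15 of 23. *Gng11*, a G protein subunit gene, was found in 18 of 23 and *Cyp4b1*, a cytochrome P450 gene, in 11 of 23 cells.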
